A study of Homo sapiens with 10 samples.

Results

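The genes described here are 37 genes of the response to low oxygen and of glycolysis, listed by name: the HIF subunits HIF1A and EPAS1, the enzymes that carry glucose to lactate, and genes that HIF is known to induce. Each gene was read from the probe set that the array's annotation gives to it alone, and from the one with the highest mean over all arrays where it had several. Of the 37 genes, 35 were measured in this way, among 18279 genes measured in all. CA9 has no probe set in the annotation table used here, and the probe sets for PGAM1 also name PGAM4, so both were left out. TPI1 was the one member with more than 1 probe set of its own.

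The arrays measured total RNA of cultured human lung cells that differ in their response to discodermolide, a marine natural product that stabilises microtubules. AD32 4E-BP1 cells (1 array) were given 0.01% DMSO and are labelled sensitive to the drug; the line is named after 4E-BP1, the product of EIF4EBP1 and a brake on cap-dependent translation. AD32 cells (3 arrays) are labelled resistant and were grown in 32 nM discodermolide. A549, a human lung adenocarcinoma line, was given 32 nM discodermolide and is then labelled senescent (2 arrays), or was given 0.01% DMSO and is labelled sensitive (4 arrays). The medium and incubator were the same for all groups, and no group is labelled as grown in low oxygen. How the AD32 lines were derived, and whether each is 1 clone, is not stated in the labels. The numbered samples are called biological replicates there, but how they were grown apart is not said, so p-values measure the spread between these samples.

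HIF is a pair of proteins, an oxygen-regulated alpha subunit such as HIF-1α or HIF-2α and its partner ARNT. In the presence of oxygen, prolyl hydroxylases of the EGLN family mark the alpha subunit for VHL, which sends it to destruction, so HIF activity is set mainly by protein stability and not by HIF1A mRNA. Stabilised HIF binds short ACGTG or GCGTG motifs and raises genes for glucose uptake, glycolysis, acid handling, collagen modification, mitophagy and vessel growth, many of which cancer cells also express in normal oxygen.

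Some arrays stood apart from their own group, and calls that changed without them are given with and without. A549 DMSO replicate 1 correlated with the other A549 DMSO arrays at 0.948 to 0.954 over all genes, and AD32 replicate 3 with the other AD32 arrays at 0.951 and 0.958, whereas AD32 replicates 1 and 2 correlated at 0.982. Both arrays also left their group in the mean level of 29 genes of G2 and mitosis: this was 9.80 in AD32 4E-BP1, 5.17, 6.20 and 9.62 in AD32, 6.58 and 6.83 in A549 with discodermolide, and 6.77, 9.88, 10.02 and 9.98 in A549 with DMSO. The AD32 4E-BP1 array correlated with A549 DMSO replicate 2 at 0.995, and with the AD32 arrays at 0.932, 0.939 and 0.979. A549 DMSO replicates 3 and 4 were the closest pair of any group, at 0.9974, and were also treated as 1 sample in an alternative. Of the epithelial markers, KRT8 (12.67 to 13.73) and KRT18 (13.03 to 14.00) were high on every array, while EPCAM (3.30 to 3.87) lay below each array's lower quartile, and the alveolar markers NKX2-1 (4.58 to 5.11) and SFTPB (5.27 to 5.86) were below each array's median. The group means of epithelial KRT19 (5.80 to 6.06) and of alveolar SFTPC (5.99 to 6.12) and NAPSA (5.28 to 5.97) were also below the medians. Those of epithelial CDH1 (8.9 to 10.0) were above them. Of the 4 measured leukocyte markers, PTPRC (2.77 to 3.20) was below each array's lower quartile, CD3E (4.62 to 5.25) and CD14 (4.99 to 6.14) were below each median, and CD68 (8.34 to 10.71) was above each upper quartile. The endothelial markers PECAM1 (4.11 to 4.75), CDH5 (4.80 to 5.45), VWF (4.66 to 5.01) and KDR (3.81 to 4.32) were below each median. Of the fibroblast markers, COL1A1 (group means 7.72 to 8.16) was above the medians, and COL1A2, THY1 and PDGFRB had group means below them. COL3A1 had a mean of 6.22 in AD32, below the medians, and 7.96 to 8.30 in the other groups. It was called lower in AD32 against both A549 groups. Levels are deposited log2 signals. Since each probe set has its own response, they are compared between groups and not between genes.

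Resistant AD32 cells had lower levels of genes from several roles. In AD32 against A549 in DMSO, 7 of 35 genes (20%) were called lower and 0 higher, where a call is an adjusted p under 0.05 from limma over all genes. The background was 5.72% of the 18279 genes called, 2.19% lower and 3.52% higher. The called genes were HK1 and ALDOC of upper glycolysis, PFKFB3 and PDK1 of glycolytic control, CA12 of acid handling, P4HA1 of collagen hydroxylation and BNIP3 of mitophagy. Differences were negative for 28 of 35 genes, with a median of -0.21, against a median of 0.01 over all genes. On all 3 AD32 arrays 7 genes lay below every A549 DMSO array, and 0 lay above, where 6.48% of all genes lay below and 8.90% above. Leaving out 1 array at a time of the 3 groups with over 1 array gave 2 to 11 calls among the 35, with 10 without A549 DMSO replicate 1, 11 without AD32 replicate 3, and 2 or 3 in the other runs. The number called over all genes moved in these runs too, as given with the processing below. It was also highest without A549 DMSO replicate 1 or AD32 replicate 3. The lone AD32 4E-BP1 array was not left out in any run. AD32 cells without the drug were not analysed here, so the line and the agent cannot be told apart in this comparison.

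Against A549 cells that also received discodermolide, AD32 was lower in 5 of the same genes, BNIP3, HK1, P4HA1, ALDOC and CA12, and 0 were higher, with 3.74% of all genes called, 2.46% lower and 1.28% higher. This comparison holds the agent and its dose equal and also tests whether AD32 and discodermolide-treated A549 differ in their distance from A549 in DMSO. The median difference was -0.44 over the 35 genes and 0.01 over all genes, and 18 of the 35 lay below on every AD32 array, where 18.0% of all genes did so. Leaving out those arrays 1 at a time gave 1 to 7 calls, with 1 without either discodermolide array and 7 without A549 DMSO replicate 1 or AD32 replicate 3. Here too the number called over all genes moved between the runs.

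In discodermolide-treated A549 against A549 in DMSO, 0 of 35 genes were called by limma, with 0.372% of all genes called (0.350% higher and 0.0219% lower), and 6 genes had an unadjusted p under 0.05. Differences were positive for 28 of 35 genes, with a median of 0.19 against 0.02 over all genes. On both treated arrays 11 genes lay above every DMSO array, against 15.2% of all genes, and 1, HK2, lay below, against 7.71%. Without A549 DMSO replicate 1 there were 3 calls, all higher with the drug: ALDOC by 1.06 on the log2 scale (adjusted p = 0.0453), BNIP3 by 0.63 (adjusted p = 0.0402) and ANGPTL4 by 0.64 (adjusted p = 0.0402). Over all genes, 643 were called without that array, against 68 with it. Leaving out each other array of the groups with over 1 array gave 0 calls among the 35 here. Array weights gave 13, with 4573 of the 18279 genes called.

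In AD32 4E-BP1 against AD32, 0 of 35 genes were called, with 0.919% of all genes called (0.339% higher and 0.580% lower), and 8 genes had an unadjusted p under 0.05. The lone array lay above all AD32 arrays for 12 genes and below for 5, where 23.9% and 27.7% of all genes did so. Against A549 in DMSO 0 genes were called by limma, with 0% of all genes called, and 1 gene had an unadjusted p under 0.05. It was the glucose transporter gene SLC2A3, with a log2 difference of -0.84 (limma, unadjusted p = 0.0151, adjusted p = 1.00). Leaving out AD32 replicate 3 gave 4 calls between AD32 4E-BP1 and AD32, described with their genes below. Both comparisons rest on 1 array, whose spread is taken from the other groups. Between AD32 4E-BP1 and AD32, the number called over all genes also moved between the left-out runs. Whether the 4 calls are particular to the 35 genes is therefore not known.

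**Figure D1:**
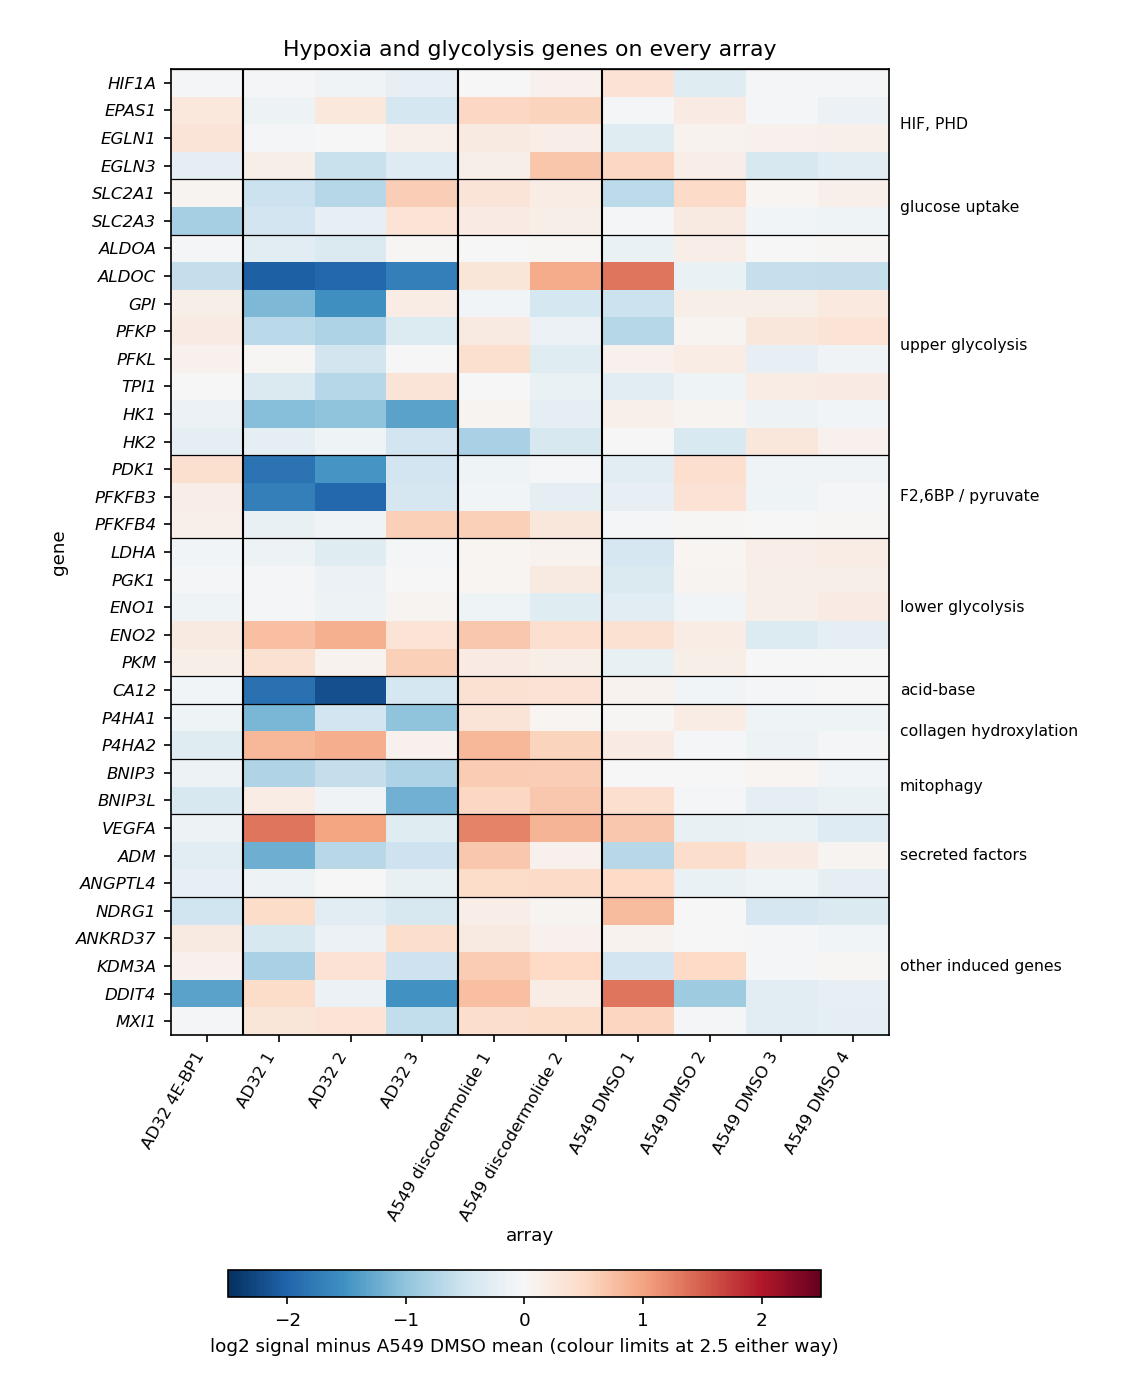
Level of each of the 35 measured genes (rows, grouped by role) on each of the 10 arrays (columns), as log2 signal minus the mean of the 4 A549 DMSO arrays; blue is lower and red higher. ALDOC, PFKFB3, PDK1 and CA12 have the darkest blue cells, in the AD32 columns, AD32 3 is paler than AD32 1 and 2 for CA12, PDK1 and PFKFB3, and A549 DMSO 1 departs from the other DMSO arrays for ALDOC, DDIT4 and VEGFA.

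Promoter sequence is shown for 4 of the genes called lower in AD32 and for PGK1, a classical HIF target that was not called, so that the letters HIF is known to bind can be set beside the levels. The windows are from RefSeq (GRCh38.p14), run from 250 bases before to 50 after a transcription start, and are written 5′ to 3′ on the gene's strand. Capitals mark ACGTG or GCGTG on either strand, which read CACGT or CACGC where the motif lies on the other strand; CACGTG holds ACGTG on both. BNIP3 is at chr10:131981874-131982173 (minus strand), ALDOC at chr17:28576846-28577145 (minus), P4HA1 at chr10:73096817-73097116 (minus), the second listed start of PDK1 at chr2:172555840-172556139 (plus), and PGK1 at chrX:78103998-78104297 (plus). For PDK1 the window with more ACGTG matches is shown, and its first listed window held 0 of either motif. HK1 and CA12, also called lower, had no ACGTG in any window and are not shown. They did hold GCGTG, with 2 matches in the CA12 window and 1 each in windows 5 and 6 of HK1. PFKFB3, also called lower, held 2 ACGTG matches in its second listed window and is not shown either. The sequences therefore do not stand for all called genes.
BNIP3: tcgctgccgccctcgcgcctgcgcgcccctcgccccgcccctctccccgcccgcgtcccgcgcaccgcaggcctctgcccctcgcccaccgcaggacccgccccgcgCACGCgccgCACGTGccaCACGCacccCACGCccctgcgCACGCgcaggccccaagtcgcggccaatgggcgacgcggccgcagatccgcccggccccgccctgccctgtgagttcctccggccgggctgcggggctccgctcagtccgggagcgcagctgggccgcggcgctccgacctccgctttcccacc
ALDOC: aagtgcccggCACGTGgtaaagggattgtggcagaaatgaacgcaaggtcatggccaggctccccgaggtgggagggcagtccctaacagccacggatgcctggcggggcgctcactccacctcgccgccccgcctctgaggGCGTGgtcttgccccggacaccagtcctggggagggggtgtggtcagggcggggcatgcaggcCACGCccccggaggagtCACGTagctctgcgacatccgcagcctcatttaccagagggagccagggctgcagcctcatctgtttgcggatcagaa
P4HA1: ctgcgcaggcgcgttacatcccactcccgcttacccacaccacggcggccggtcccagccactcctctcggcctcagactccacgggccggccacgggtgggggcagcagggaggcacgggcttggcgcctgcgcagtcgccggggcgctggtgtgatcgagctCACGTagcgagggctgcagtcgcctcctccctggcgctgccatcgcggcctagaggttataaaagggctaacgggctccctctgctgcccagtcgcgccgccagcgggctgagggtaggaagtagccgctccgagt
PDK1: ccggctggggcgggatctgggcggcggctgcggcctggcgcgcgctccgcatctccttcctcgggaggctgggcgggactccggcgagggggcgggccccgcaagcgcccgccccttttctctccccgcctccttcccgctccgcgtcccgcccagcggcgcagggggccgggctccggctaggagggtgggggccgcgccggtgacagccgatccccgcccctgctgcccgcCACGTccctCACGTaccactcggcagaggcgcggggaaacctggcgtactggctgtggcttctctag
PGK1: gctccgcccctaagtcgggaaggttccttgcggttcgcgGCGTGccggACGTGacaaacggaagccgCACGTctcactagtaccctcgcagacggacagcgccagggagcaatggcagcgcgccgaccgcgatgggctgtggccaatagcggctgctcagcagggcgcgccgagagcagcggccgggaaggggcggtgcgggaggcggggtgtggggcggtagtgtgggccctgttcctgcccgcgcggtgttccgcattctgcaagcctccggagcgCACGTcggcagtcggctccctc
The BNIP3 window held 2 ACGTG and 4 GCGTG matches in a row of CACGC copies, and the ALDOC window held 3 and 2, while the P4HA1 window held 1 ACGTG and 0 GCGTG. The PGK1 window held 3 ACGTG and 1 GCGTG, so a gene that was not called had as many ACGTG matches as ALDOC. Windows were found for 31 of the measured genes, 51 windows in all, and BNIP3L, VEGFA, SLC2A3 and NDRG1 had no entry. ACGTG was present in 21 of the 51 windows (41.2%), against 21.4% of all 35116 windows, and GCGTG in 26 (51.0%) against 36.5%. Among the genes called lower in AD32, 5 of 15 windows held ACGTG (33.3%), and among the other measured genes 16 of 36 did (44.4%). GCGTG was held by 6 (40.0%) and 20 (55.6%) of the same windows. HK1 alone has 7 of those 15 windows, none of them with ACGTG. Counted by gene, at least 1 window held ACGTG for 5 of the 7 called genes and for 13 of the other 24. GCGTG was held for 5 of the 7 and 16 of the 24. The order of the shares thus turned with the way of counting. A match is a description of letters and not of a bound site.

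The HIF subunits and their hydroxylases were not called in any comparison. HIF1A, which encodes HIF-1α, had 11.67, 11.60 and 11.48 in AD32, against 12.06, 11.39, 11.68 and 11.66 in A549 in DMSO. The difference was -0.11 with a 95% interval of -0.48 to 0.25 (adjusted p = 0.804), and the arrays overlapped. EPAS1, which encodes HIF-2α, had 11.11, 11.50 and 10.81 in AD32, against 11.76 and 11.81 in A549 with discodermolide and 11.22, 11.44, 11.21 and 11.09 in A549 with DMSO. Both discodermolide arrays were above every AD32 and every DMSO array, but the differences of -0.64 (AD32 minus A549 discodermolide, adjusted p = 0.145) and 0.54 (A549 discodermolide minus A549 DMSO, adjusted p = 0.344) did not pass. EGLN1, the main HIF prolyl hydroxylase, differed by 0.03 between AD32 and A549 in DMSO and EGLN3, a hydroxylase that HIF itself induces, by -0.24, both with overlapping arrays.

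Among 12 measured genes of HIF and oxygen sensing, which include the 4 genes just described, 1 was called in AD32 against A549 in DMSO. That was 8.33% of the list, against 5.72% of all genes. CITED2, which competes with HIF for the coactivators p300 and CBP and is itself a HIF target, had 9.44, 9.35 and 8.64 in AD32, against 8.15, 8.06, 7.62 and 7.61 in A549 in DMSO. The difference was 1.28 on the log2 scale (2.43-fold, SE 0.22, adjusted p = 0.0118), with no overlap. ARNT, the partner subunit, differed by -0.03 and VHL by 0.29, and HIF1AN, the asparaginyl hydroxylase that blocks HIF's coactivator contact, by -0.43 (adjusted p = 0.190). The HIF1AN difference between AD32 and A549 with discodermolide was -0.85, just short of the threshold (adjusted p = 0.0532).

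Glucose uptake genes were not called in any of the 5 comparisons, and both varied within groups. SLC2A1, encoding the transporter GLUT1, had 9.76, 9.58 and 10.92 in AD32, against 9.64, 10.78, 10.35 and 10.43 in A549 in DMSO. AD32 replicate 3 and A549 DMSO replicate 1 were on the opposite side of their own group, and without both the difference was -0.85 (adjusted p = 0.00359), against -0.21 (adjusted p = 0.835) with all arrays. Leaving out this pair was chosen after seeing the data, and far more genes were then called over all genes. AD32 and A549 in DMSO then also no longer overlapped in mitotic mean. SLC2A3, encoding GLUT3, had 11.06 in AD32 4E-BP1, the lowest value of the 10 arrays, against 11.43, 11.70 and 12.25 in AD32 and 11.85, 12.12, 11.83 and 11.79 in A549 in DMSO.

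Upper glycolysis, from hexokinase to triose phosphate isomerase, had lower mean levels in AD32 than in A549 in DMSO for 8 of 8 genes, with a median of -0.44, and 2 were called. HK1, the hexokinase that commits glucose to metabolism in most tissues, had 6.34, 6.40 and 6.05 in AD32. This compared with 7.25 in AD32 4E-BP1, 7.47 and 7.14 in A549 with discodermolide and 7.51, 7.47, 7.26 and 7.33 in A549 with DMSO. All 3 AD32 arrays, including replicate 3, were below all other arrays. These HK1 values were also below the arrays' medians and above their lower quartiles. The same held for ALDOC on the AD32 arrays and for PDK1 on AD32 replicates 1 and 2, and no detection call was given. HK1 was 2.19-fold lower in AD32 than in A549 in DMSO (log2 difference -1.13, SE 0.14, adjusted p = 0.00273) and 2.06-fold lower than in A549 with discodermolide (-1.04, SE 0.17, adjusted p = 0.0118). The second call was lost when either discodermolide array was left out (adjusted p = 0.141 without replicate 1 and 0.0559 without replicate 2). HK2, the hexokinase induced in many tumours, had 6.76, 6.90 and 6.53 in AD32, against 6.99, 6.62, 7.30 and 7.11 in A549 in DMSO. The HK2 arrays overlapped, and the difference of -0.27 did not pass (adjusted p = 0.505).

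ALDOC, the aldolase isoform best known from brain, had the largest difference of the measured genes in both AD32 comparisons with A549. It had 5.59, 5.66 and 5.92 in AD32, against 7.92 and 8.55 in A549 with discodermolide and 8.97, 7.47, 7.04 and 7.03 in A549 with DMSO. AD32 4E-BP1 had 7.02, close to A549 DMSO replicates 3 and 4. ALDOC was 3.74-fold lower in AD32 than in A549 in DMSO (log2 difference -1.90, SE 0.43, adjusted p = 0.0358) and 5.72-fold lower than in A549 with discodermolide (-2.52, SE 0.52, adjusted p = 0.0326), with no overlap in either. A549 DMSO replicate 1 was the highest array, and without it the difference from DMSO was -1.46 with an adjusted p of 0.00449. Leaving out any of AD32 replicates 1 and 2, the discodermolide arrays or A549 DMSO replicates 2, 3 and 4 instead gave adjusted p between 0.0540 and 0.127 against A549 in DMSO. Against A549 with discodermolide, ALDOC lost its call without AD32 replicate 1 (adjusted p = 0.0995) or 2 (0.0917), discodermolide replicate 1 (0.137) or 2 (0.283), or A549 DMSO replicate 2 (0.0590). ALDOA, the aldolase of most tissues, differed by -0.21 between AD32 and A549 in DMSO (adjusted p = 0.498), with overlapping arrays.

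GPI and PFKP were not called, and the arrays of AD32 and A549 in DMSO overlapped in both. GPI, which converts glucose 6-phosphate to fructose 6-phosphate, had 10.86, 10.45 and 12.16 in AD32, against 11.44, 12.13, 12.12 and 12.21 in A549 in DMSO. PFKP, a phosphofructokinase isoform, had 9.44, 9.33 and 9.78 in AD32, against 9.41, 10.19, 10.40 and 10.45 in A549 in DMSO. For GPI replicates 1 and 2 of AD32 were below every DMSO array and replicate 3 was among them, while for PFKP it was A549 DMSO replicate 1 that overlapped AD32. Neither was called with all arrays (GPI -0.82, adjusted p = 0.275, and PFKP -0.60, adjusted p = 0.242), GPI was called without AD32 replicate 3 (-1.32, adjusted p = 0.0130), and PFKP without A549 DMSO replicate 1 (-0.83, adjusted p = 0.0169). PFKL and TPI1, the remaining phosphofructokinase isoform and triose phosphate isomerase, differed by -0.13 and -0.25, with overlapping arrays.

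PFKFB3 and PDK1, which set the pace and the fate of glycolysis, were lower in AD32 with a wide spread among its arrays. PFKFB3 makes fructose 2,6-bisphosphate, the activator of phosphofructokinase, and had 8.77, 8.52 and 10.06 in AD32. It had 10.64 in AD32 4E-BP1, 10.41 and 10.24 in A549 with discodermolide, and 10.28, 10.84, 10.37 and 10.43 in A549 with DMSO. All AD32 arrays were below every other array, and replicate 3 was the nearest to them. PFKFB3 was 2.57-fold lower in AD32 than in A549 in DMSO (log2 difference -1.36, SE 0.33, adjusted p = 0.0480), and its difference from A549 with discodermolide, -1.21, was not called (adjusted p = 0.158). Without AD32 replicate 3 the differences were -1.84 (adjusted p = 0.000754) and -1.68 (adjusted p = 0.00327). Leaving out AD32 replicate 1 or 2 gave adjusted p of 0.169 and 0.171 for PFKFB3 against A549 in DMSO, A549 DMSO replicate 2, 3 or 4 gave 0.113, 0.109 and 0.117, and either discodermolide array gave 0.0860.

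PDK1, the kinase that inhibits pyruvate dehydrogenase and so keeps pyruvate from the mitochondrion, had 5.86, 6.23 and 7.22 in AD32. The values were 8.09 in AD32 4E-BP1, 7.59 and 7.65 in A549 with discodermolide, and 7.45, 8.13, 7.62 and 7.61 in A549 with DMSO. AD32 did not overlap the other groups, and replicate 3 was again the nearest to them. PDK1 was 2.40-fold lower in AD32 than in A549 in DMSO (log2 difference -1.26, SE 0.30, adjusted p = 0.0434), and the difference of -1.18 from A549 with discodermolide was not called (adjusted p = 0.128). Without AD32 replicate 3 both PDK1 differences were called, at -1.66 (adjusted p = 0.00229) and -1.57 (adjusted p = 0.00800). Leaving out AD32 replicate 1 or 2 gave adjusted p of 0.141 and 0.160 for PDK1 against A549 in DMSO, A549 DMSO replicate 2, 3 or 4 gave 0.0994, 0.103 and 0.104, and either discodermolide array gave 0.0806. PFKFB4, the other induced isoform of the fructose 2,6-bisphosphate enzyme, had 6.35, 6.43 and 7.12 in AD32, against 7.13 and 6.80 in A549 with discodermolide and 6.47, 6.55, 6.53 and 6.55 in A549 with DMSO, and was not called.

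Within AD32, replicate 3, the array with the high mean of G2 and mitosis genes, was also the one nearest to A549 in PFKFB3, PDK1 and CA12. From AD32 replicate 1 to replicate 2 the mitotic mean rose, as did PDK1, while PFKFB3 and CA12 fell. Of the other genes called lower, ALDOC (5.92) was also highest on replicate 3 within AD32, P4HA1 (9.21) lay between, and HK1 (6.05) and BNIP3 (8.97) were lowest. In A549 with discodermolide, where the mitotic mean was low on both arrays, PFKFB3, PDK1 and CA12 differed from A549 in DMSO by -0.15, -0.08 and 0.38. A549 DMSO replicate 1, also low in mitotic mean, had the lowest PFKFB3 (10.28) and PDK1 (7.45) and the highest CA12 (10.18) of the DMSO arrays. The part of cell cycle state in these differences was not tested.

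Lower glycolysis, from phosphoglycerate kinase to lactate dehydrogenase, was not called in any comparison. LDHA, which turns pyruvate to lactate, had 13.00, 12.82 and 13.08 in AD32, against 12.71, 13.17, 13.29 and 13.31 in A549 in DMSO. The difference was -0.15, with an interval of -0.53 to 0.22 and overlapping arrays. PGK1 had 12.14, 12.03 and 12.18 in AD32, against 11.82, 12.24, 12.32 and 12.32 in A549 in DMSO, a difference of -0.06 (interval -0.40 to 0.28), and ENO1, the ubiquitous enolase, differed by -0.03 (interval -0.36 to 0.30). The intervals of LDHA, PGK1 and ENO1 do not reach a fall of 1 log2 unit, the size seen for HK1. The median of the 5 genes was -0.03, and it turned positive, at 0.04, under a further quantile normalization.

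ENO2 and PKM had higher means in AD32. ENO2, the enolase known from neurons, had 9.02, 9.15 and 8.61 in AD32, against 8.93 and 8.69 in A549 with discodermolide and 8.64, 8.46, 7.92 and 8.04 in A549 with DMSO. Its difference from A549 in DMSO was 0.66 (adjusted p = 0.113), and it was called without A549 DMSO replicate 1 (0.78, adjusted p = 0.0361) or without AD32 replicate 3 (0.82, adjusted p = 0.0496). PKM, the pyruvate kinase of most dividing cells, had 12.68, 12.37 and 12.88 in AD32, against 12.11, 12.45, 12.31 and 12.30 in A549 in DMSO, and its difference of 0.35 was not called (adjusted p = 0.228).

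**Figure D2:**
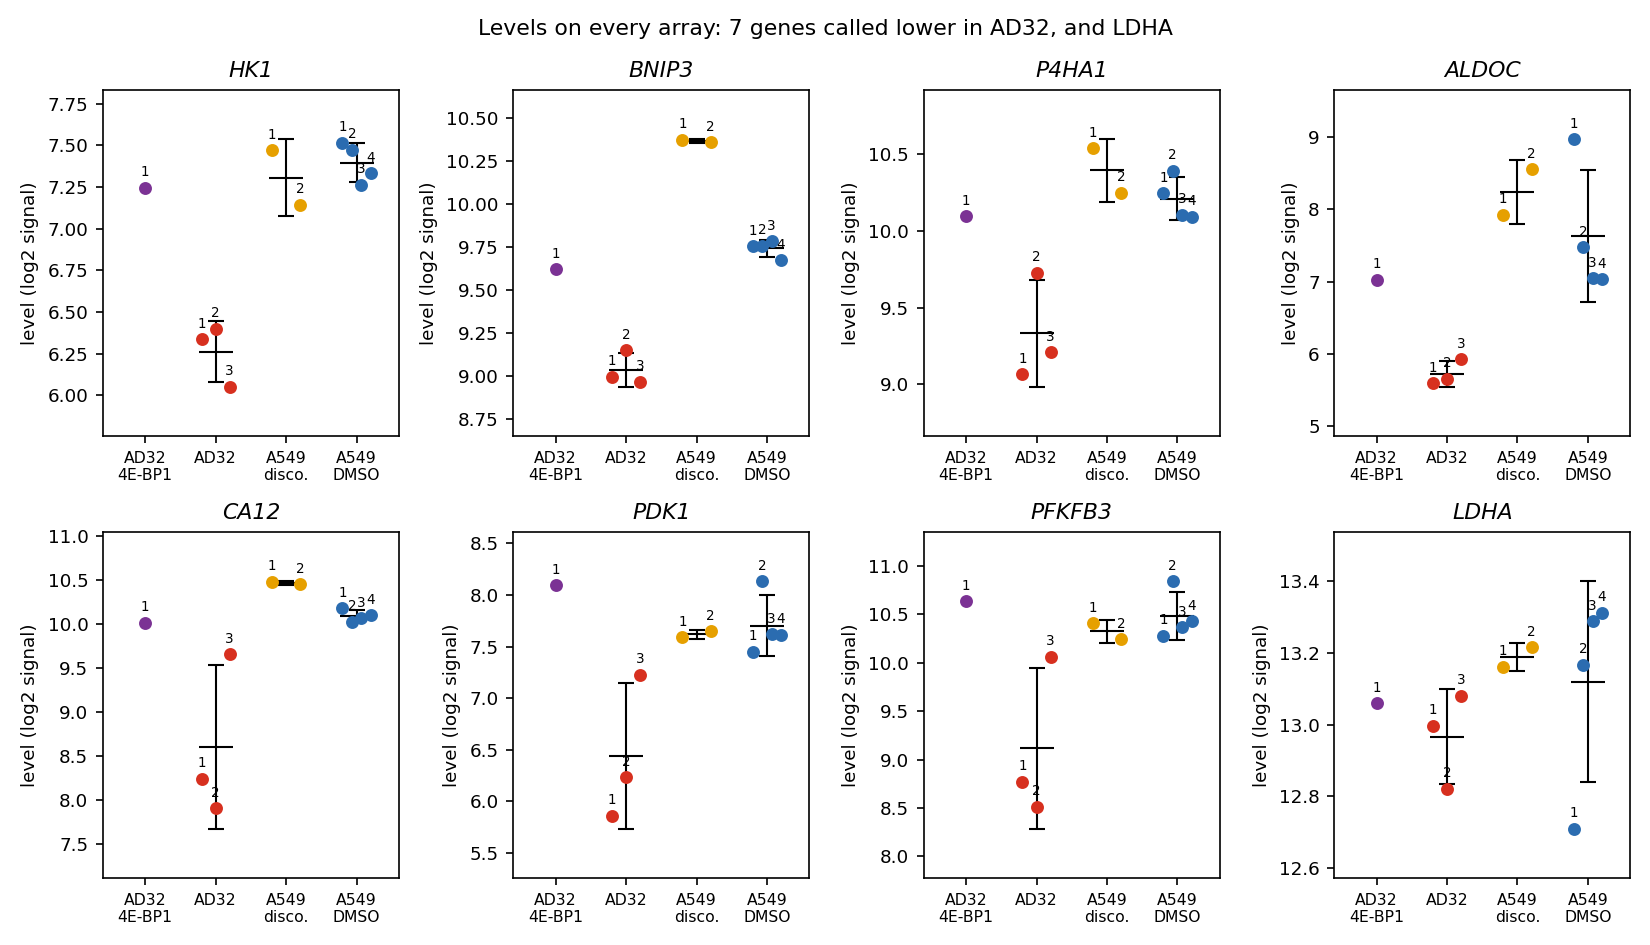
Log2 signal of the 7 genes called lower in AD32 against A549 in DMSO, and of LDHA for comparison, on every array; points are arrays with their replicate numbers, and bars are the group mean and SD. The vertical axes start at different levels for each gene. The AD32 points lie below all A549 points for the 7 genes and overlap those of A549 DMSO for LDHA. AD32 3 is the highest AD32 point for ALDOC, CA12, PDK1, PFKFB3 and LDHA.

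CA12, a membrane carbonic anhydrase that helps cells export acid, had 8.24, 7.90 and 9.66 in AD32. It had 10.02 in AD32 4E-BP1, 10.48 and 10.46 in A549 with discodermolide, and 10.18, 10.03, 10.07 and 10.10 in A549 with DMSO. The A549 arrays lay within a narrow range, and AD32 replicate 3 was nearer to them than to the other AD32 arrays. CA12 was 2.82-fold lower in AD32 than in A549 in DMSO (log2 difference -1.49, SE 0.35, adjusted p = 0.0403) and 3.65-fold lower than in A549 with discodermolide (-1.87, SE 0.42, adjusted p = 0.0451). Without AD32 replicate 3 the CA12 differences were -2.02 (adjusted p = 0.000107) and -2.40 (adjusted p = 0.000178). Leaving out AD32 replicate 1 or 2 gave adjusted p of 0.148 and 0.136 for CA12 against A549 in DMSO, A549 DMSO replicate 2, 3 or 4 gave 0.0845, 0.103 and 0.107, and either discodermolide array gave 0.0750. Against A549 with discodermolide, CA12 lost its call without AD32 replicate 1 (adjusted p = 0.133) or 2 (0.100), discodermolide replicate 1 (0.254) or 2 (0.268), or A549 DMSO replicate 2 (0.0786), 3 (0.0814) or 4 (0.0826).

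The prolyl 4-hydroxylase genes of collagen had differences of opposite sign, and 1 of them was called. P4HA1 encodes the main catalytic subunit of the enzyme that stabilises the collagen helix, and had 9.07, 9.73 and 9.21 in AD32, against 10.54 and 10.25 in A549 with discodermolide and 10.24, 10.39, 10.10 and 10.09 in A549 with DMSO. AD32 4E-BP1 had 10.10, at the level of A549 in DMSO, and the AD32 arrays were below all others. P4HA1 was 1.83-fold lower in AD32 than in A549 in DMSO (log2 difference -0.87, SE 0.18, adjusted p = 0.0233) and 2.08-fold lower than in A549 with discodermolide (-1.06, SE 0.21, adjusted p = 0.0298). The P4HA1 call against A549 in DMSO was lost without AD32 replicate 1 (adjusted p = 0.0908) or A549 DMSO replicate 2 (0.0640), 3 (0.0602) or 4 (0.0604). The call against A549 with discodermolide was lost without AD32 replicate 1 (0.0861), either discodermolide array (0.253 and 0.127) or A549 DMSO replicate 3 (0.0576) or 4 (0.0580). P4HA2, an alternative catalytic subunit, had 8.74 in AD32 4E-BP1, 9.89, 9.97 and 9.17 in AD32, 9.88 and 9.61 in A549 with discodermolide, and 9.27, 9.01, 8.93 and 9.01 in A549 with DMSO. Its difference of 0.62 between AD32 and A549 in DMSO was not called (adjusted p = 0.125) with all arrays, and was called without AD32 replicate 3 (0.87, adjusted p = 0.00988).

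BNIP3, a mitophagy receptor of the outer mitochondrial membrane and a classical HIF target, had the smallest standard errors of the measured genes. It had 9.00, 9.15 and 8.97 in AD32, 10.38 and 10.36 in A549 with discodermolide, and 9.76, 9.76, 9.79 and 9.68 in A549 with DMSO. AD32 was the lowest group and A549 with discodermolide the highest, with no overlap, and AD32 4E-BP1 (9.62) lay just below the A549 DMSO arrays. BNIP3 was 1.63-fold lower in AD32 than in A549 in DMSO (log2 difference -0.70, SE 0.11, adjusted p = 0.00666) and 2.51-fold lower than in A549 with discodermolide (-1.33, SE 0.13, adjusted p = 0.000816). The difference of 0.62 between A549 with discodermolide and A549 with DMSO did not pass with all arrays (SE 0.12, adjusted p = 0.0807). In all 19 alternatives BNIP3 was called in both AD32 comparisons with A549.

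BNIP3L, the related receptor NIX that also clears mitochondria from red cells, had 10.28, 10.01 and 8.89 in AD32, against 10.62 and 10.76 in A549 with discodermolide and 10.52, 10.07, 9.87 and 9.92 in A549 with DMSO. Here AD32 replicate 3 was the lowest array, and no comparison was called (AD32 minus A549 discodermolide -0.96, adjusted p = 0.238).

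Secreted factors were not called in any comparison with all arrays. VEGFA, the vessel growth factor, had 7.64 in AD32 4E-BP1, 9.11, 8.75 and 7.47 in AD32, 9.00 and 8.61 in A549 with discodermolide, and 8.43, 7.58, 7.59 and 7.45 in A549 with DMSO. The high arrays were AD32 1 and 2, both discodermolide arrays and A549 DMSO 1, which were the 5 arrays with a low mitotic mean, and the part of that state in VEGFA was not tested. The differences from A549 in DMSO were 1.04 for A549 with discodermolide (adjusted p = 0.424) and 0.68 for AD32 (adjusted p = 0.398), and without both A549 DMSO replicate 1 and AD32 replicate 3 they were 1.26 (adjusted p = 0.000989) and 1.39 (adjusted p = 0.000241). Leaving out this pair was chosen after seeing the data, and far more genes were then called over all genes. It also left no overlap in mitotic mean with A549 in DMSO, so group and mitotic state cannot be told apart there. Without AD32 replicate 3 alone the AD32 difference of VEGFA was 1.17 (adjusted p = 0.0356).

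ADM, the vasodilator peptide adrenomedullin, had 8.45, 8.99 and 9.15 in AD32, against 10.34 and 9.78 in A549 with discodermolide and 8.97, 10.10, 9.87 and 9.74 in A549 with DMSO. A549 DMSO replicate 1 fell among the AD32 arrays, and without it the AD32 difference from DMSO was -1.04 (adjusted p = 0.0213), against -0.81 (adjusted p = 0.154) with all arrays. The ADM difference from A549 with discodermolide was -1.20 (adjusted p = 0.106), and without A549 DMSO replicate 1, which narrows the pooled spread, it was called (adjusted p = 0.0262). ANGPTL4, an inhibitor of lipoprotein lipase, had 6.72, 6.86 and 6.65 in AD32, against 7.31 and 7.32 in A549 with discodermolide and 7.35, 6.68, 6.74 and 6.61 in A549 with DMSO. Its difference of -0.57 between AD32 and A549 with discodermolide was called only without A549 DMSO replicate 1 among the arrays left out singly (adjusted p = 0.0355).

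The other HIF-induced genes NDRG1, ANKRD37, KDM3A, DDIT4 and MXI1 were not called in any comparison with all arrays. DDIT4, an inhibitor of mTORC1 also known as REDD1, had the widest spread within groups: 8.86 in AD32 4E-BP1, 10.66, 10.05 and 8.67 in AD32, 10.94 and 10.37 in A549 with discodermolide, and 11.53, 9.31, 9.94 and 9.98 in A549 with DMSO. Its arrays overlapped between AD32 and A549 in DMSO, where the difference was -0.40 with a 95% interval of -1.69 to 0.89. MXI1, a MYC antagonist, had 7.88, 7.93 and 6.97 in AD32, against 8.02 and 8.04 in A549 with discodermolide and 8.13, 7.53, 7.32 and 7.34 in A549 with DMSO. KDM3A, a histone demethylase, differed by -0.90 between AD32 and A549 with discodermolide, with no overlap (adjusted p = 0.249). NDRG1, a stress-response gene, and ANKRD37, an ankyrin-repeat gene, differed by -0.07 and -0.03 between AD32 and A549 in DMSO.

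**Figure D3:**
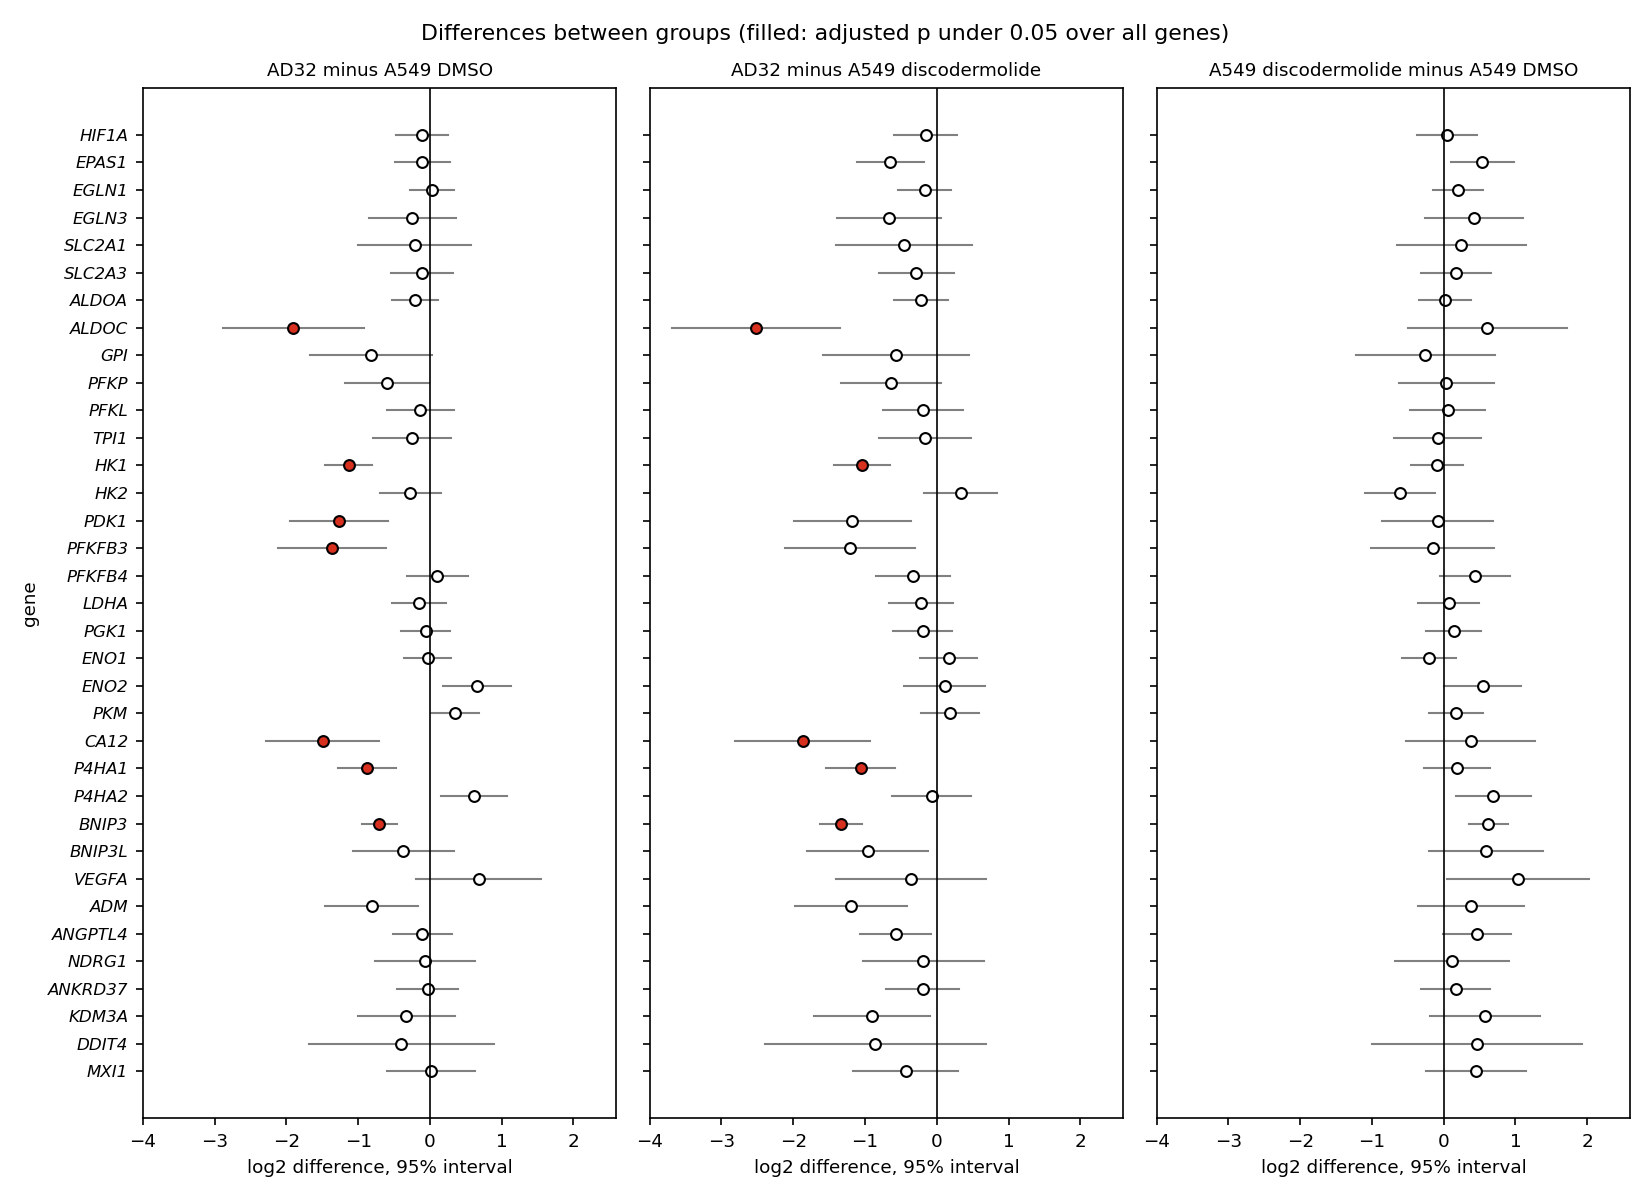
Log2 differences of the 35 genes between AD32 and A549 DMSO, AD32 and A549 discodermolide, and A549 discodermolide and A549 DMSO, with 95% intervals from limma; filled points have an adjusted p under 0.05 over all genes. There are 7 filled points in the first panel, 5 in the second and 0 in the third, all of them to the left of 0.

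The AD32 4E-BP1 array lay above all 3 AD32 arrays for each of the 7 genes that were lower in AD32, which were chosen on AD32 and so cannot test it. The differences from AD32 were 1.66 for PDK1 (adjusted p = 0.209), 1.52 for PFKFB3 (0.327), 1.42 for CA12 (0.413), 1.30 for ALDOC (0.617), 0.98 for HK1 (0.101), 0.76 for P4HA1 (0.371) and 0.58 for BNIP3 (0.216), and were not called. Without AD32 replicate 3, CA12 (1.95, adjusted p = 0.00195), PDK1 (2.05, adjusted p = 0.00988), PFKFB3 (1.99, adjusted p = 0.00664) and P4HA2 (-1.18, adjusted p = 0.0259) were called. EIF4EBP1 itself was 11.61 in AD32 4E-BP1, against 8.93, 7.99 and 8.63 in AD32, a difference of 3.09 on the log2 scale (8.52-fold, SE 0.39, adjusted p = 0.00708). Since AD32 4E-BP1 received DMSO and AD32 discodermolide, and the pair also differ in the mitotic mean, the line and the agent cannot be told apart here.

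Across the 4 groups, A549 with discodermolide had the highest mean for 22 of the 35 genes and AD32 the lowest for 21. AD32 4E-BP1 was highest for 7 and lowest for 8, A549 in DMSO was highest for 4 and lowest for 4, and AD32 was highest for 2 and A549 with discodermolide lowest for 2. The same count over all genes was not made, and the groups differ in their number of arrays. Whether this order is particular to the 35 genes is therefore not known. Against the range of the 4 A549 DMSO arrays, AD32 replicates 1, 2 and 3 had 15, 17 and 13 of the 35 genes below and 4, 4 and 6 above. Over all genes the same arrays had 21.1%, 25.1% and 22.7% below and 31.1%, 25.8% and 21.5% above. Because these are bulk samples, fewer cells expressing a gene and less RNA per cell cannot be told apart.

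The wider pathway was mixed in AD32. Of 33 other measured HIF target genes, 4 were called lower and 2 higher in AD32 against A549 in DMSO, with a median of 0.06. The calls made up 18.2% of the list, against 5.72% of all genes. CA2, a cytosolic carbonic anhydrase, had 6.95, 7.00 and 7.41 in AD32, against 9.61, 8.87, 9.43 and 9.50 in A549 in DMSO, and was 4.69-fold lower (adjusted p = 0.00103). LOXL2, a lysyl oxidase that crosslinks collagen, was 3.65-fold lower (adjusted p = 0.0135), at 7.06, 6.98 and 8.44 in AD32, against 9.53, 9.67, 9.13 and 9.12 in A549 in DMSO. PPP1R3C, a subunit that directs protein phosphatase 1 to glycogen, went the other way, with 8.48, 8.03 and 6.80 in AD32, against 5.15, 4.68, 4.40 and 4.90 in A549 in DMSO (7.92-fold higher, adjusted p = 0.00197). The DMSO values of PPP1R3C are near the arrays' lower quartile, where signal above background was not shown. RIOK3, a kinase, was 4.71-fold higher (adjusted p = 0.0204). Genes of 1 target list were therefore called in both directions.

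Against A549 with discodermolide, 5 of the 33 HIF targets were lower and 1 was higher in AD32, among them CA2 (log2 difference -2.20, adjusted p = 0.00398), PPP1R3C (3.17, adjusted p = 0.00490) and the lipid droplet gene PLIN2 (-1.93, adjusted p = 0.0102). These calls were 18.2% of the list, against 3.74% of all genes. PPP1R3C was the 1 gene of that list called in AD32 4E-BP1 against AD32, where it was 4.60 on the lone array (log2 difference -3.17, adjusted p = 0.0328). No gene of the list was called in A549 with discodermolide against A549 with DMSO.

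Of 16 other glycolysis enzymes, 1 (6.25%, near the 5.72% of all genes) was called higher and 0 lower in AD32 against A549 in DMSO. It was PFKFB2, the isoform of the fructose 2,6-bisphosphate enzyme that kinases activate in heart, with 8.27, 8.22 and 7.92 in AD32, against 7.77, 6.91, 7.23 and 7.03 in A549 in DMSO. PFKFB2 was 1.86-fold higher (adjusted p = 0.0414), opposite in direction to PFKFB3. GAPDH, the glycolytic dehydrogenase, differed by -0.09 (interval -0.42 to 0.24) and LDHB, the heart type lactate dehydrogenase, by -0.24 (interval -0.70 to 0.21).

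Of 14 genes that sense glucose or act with MYC and mTOR, 2 were higher and 1 lower in AD32 against A549 in DMSO. They made up 21.4% of the list, against 5.72% of all genes. The list was chosen with earlier results of these data known, so this share does not test it. TXNIP, which restrains glucose uptake and is induced when glucose metabolites build up, had 10.88, 11.39 and 7.14 in AD32. It had 5.23 in AD32 4E-BP1, 5.93 and 6.36 in A549 with discodermolide and 5.61, 5.00, 4.92 and 4.90 in A549 with DMSO. TXNIP was 26.0-fold higher in AD32 than in A549 in DMSO (log2 difference 4.70, SE 0.85, adjusted p = 0.0139), with replicate 3 far below the other AD32 arrays and the DMSO arrays near the lower quartile. MLXIPL, which encodes the glucose-sensing factor ChREBP, was 2.22-fold higher (adjusted p = 0.0376), and EIF4EBP1 was 2.24-fold lower (adjusted p = 0.0326). MYC, which drives many glycolysis genes, had 8.68, 8.18 and 9.93 in AD32, against 9.40, 9.50, 9.47 and 9.63 in A549 in DMSO, and was not called (-0.56, adjusted p = 0.433).

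**Figure D4:**
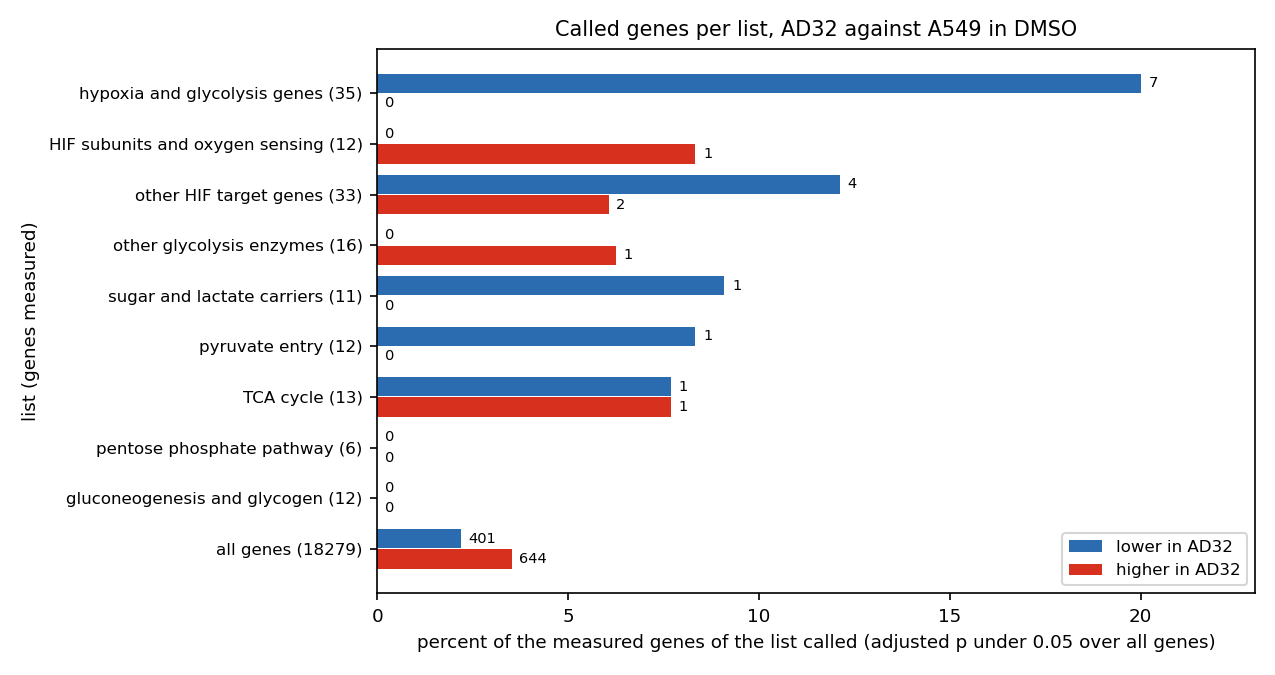
Percent of the measured genes of each list that were called lower (blue) or higher (red) in AD32 against A549 in DMSO, with the number of genes beside each bar and the number measured in parentheses. The hypoxia and glycolysis genes have 7 lower and 0 higher calls, other HIF targets 4 and 2, and all genes 401 and 644.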

How the data were processed

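Levels are log2 signals that the authors deposited, 1 value per probe set and array, and the submitters' processing notes name Affymetrix Expression Console. Version, summarisation and normalization settings were not given in the sources used here, and the log2 scale was judged from the range of the values. No value was missing, no detection call was given, and array medians were 6.50 to 6.63. The number of arrays limits the precision.

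Of 24308 probe sets, 19262 name 1 gene, 1720 several and 3326 none in the platform annotation used here, which left 18279 genes. For 740 genes with several probe sets, the one with the highest mean was used.

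The 4 groups of 10 arrays were fitted together with limma 3.58.1 (lmFit, eBayes) in R 4.3.3, with 6 residual degrees of freedom, two-sided tests, Benjamini-Hochberg adjustment over all genes and a threshold of 0.05, in 5 comparisons. The fit was tested on simulated data. Folds are ratios of signal.

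Members and lists were chosen with earlier results of these data known, so their shares of calls beside those of all genes are descriptions and not tests. Besides all members, up to 4 genes of each other list and comparison could be named, those with the smallest p among calls whose arrays did not overlap. EIF4EBP1, MKI67, TXNIP, GAPDH, VHL, ARNT, HIF1AN, LDHB and MYC could be named whatever their result. The 19 alternatives were median centring, another quantile normalization, a fit without the 33.3% of genes with the lowest means, array weights, a trended robust prior, averaged probe sets, the compared groups alone, a replicate block, averaging of A549 DMSO replicates 3 and 4, each of the 9 arrays other than AD32 4E-BP1 left out in turn, and, chosen after seeing the data, A549 DMSO replicate 1 and AD32 replicate 3 left out together. Promoter motifs were counted with Python 3.11.15 in RefSeq windows of 300 bases (GRCh38.p14).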

Additional observations from a re-analysis of the deposited data

Results flagged for a closer look

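Dixon's test at the 95% level was applied to each of the 35 genes in the group of 4 A549 DMSO arrays, and chance flags about 1 group in 20. It marked 4 genes, all for A549 DMSO replicate 1. VEGFA was 8.43 on that array, against 7.45 to 7.59 on the others. PGK1 was 11.82, against 12.24 to 12.32. GPI was 11.44, against 12.12 to 12.21. EGLN1 was 8.91, against 9.29 to 9.34. The same array had a mean of 6.77 over the G2 and mitosis genes, against 9.88 to 10.02 on the other A549 DMSO arrays, and the part of this in the 4 levels was not tested.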

How the results depend on the processing

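Main counts of called genes were 68 for A549 discodermolide against A549 DMSO, 1045 for AD32 against A549 DMSO, 683 for AD32 against A549 discodermolide, 168 in AD32 4E-BP1 against AD32, with 0 in AD32 4E-BP1 against A549 DMSO, and the calls were 0, 7, 5, 0 and 0 among the 35 hypoxia and glycolysis genes. In that order of comparisons, array weights gave 4573, 4215, 1869, 1282 and 3 genes, with 13, 13, 8 and 5 of the 35 in the first 4. Leaving out A549 DMSO replicate 1 and AD32 replicate 3 together gave 2656, 5164, 2769 and 3005 genes, with 9, 16, 14 and 10 of the 35. Averaging A549 DMSO replicates 3 and 4 gave 15, 525 and 459 genes in the first 3 and 99 in AD32 4E-BP1 against AD32, with 2 of the 35 for AD32 against A549 DMSO and 3 for AD32 against A549 discodermolide. Fitting the compared groups alone gave 106 genes in the first, 353 in AD32 against A549 discodermolide and 13 in AD32 4E-BP1 against AD32, with 3 and 2 of the 35 in the AD32 comparisons with A549. Without the lowest genes there were 36 in the first and 107 in AD32 4E-BP1 against AD32. A further quantile normalization left 3 of the 35 in AD32 against A549 discodermolide.

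With each array other than the lone AD32 4E-BP1 array left out in turn, genes ranged over 8 to 643, 512 to 2164, 132 to 1215 and 99 to 656 in the first 4 comparisons and stayed at 0 in the last. Of the 35 these runs called 0 to 3, 2 to 11, 1 to 7, 0 to 4 and 0. The highest counts came without A549 DMSO replicate 1 or without AD32 replicate 3. The cause was not tested.

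With the replicate number as a block there were 4 genes for A549 discodermolide against A549 DMSO, 650 for AD32 against A549 DMSO and 89 in AD32 4E-BP1 against AD32, with 2 and 3 of the 35 in AD32 against A549 DMSO and against A549 discodermolide. Deviations of same-numbered arrays correlated at 0.68, -0.26 and 0.41 between AD32 and A549 DMSO. The labels do not say whether the numbers pair the samples, and these correlations, of mixed sign, do not settle it.

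Of 3325 values of single genes under alternatives, 82 gained a call, 74 lost one and 0 reversed. HK1 and BNIP3 were called in AD32 against A549 DMSO under 19 of 19 alternatives, P4HA1 under 13, and ALDOC, CA12, PDK1 and PFKFB3 under 9 each.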

Other observations

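In AD32 against A549 in DMSO, where 5.72% of all genes were called, 9.09% of the sugar and lactate carriers, 8.33% of the genes of pyruvate entry and 15.4% of the TCA cycle genes were called. Of 11 sugar and lactate carriers, 1 was called: SLC2A12, a glucose transporter, had 5.00, 4.88 and 4.83 in AD32, near the arrays' lower quartile, against 9.55, 8.13, 7.42 and 7.48 in A549 in DMSO (log2 difference -3.24, SE 0.45, adjusted p = 0.0043). It was also lower than in A549 with discodermolide (-3.82, adjusted p = 0.0061), and was 7.90 in AD32 4E-BP1. The lactate and monocarboxylate carrier family gene SLC16A4 was lower than in A549 with discodermolide (-2.01, adjusted p = 0.0271). Of 12 genes of pyruvate entry, 1 was called: PC, pyruvate carboxylase, at 7.45, 7.12 and 7.73 in AD32, against 9.05, 8.73, 8.30 and 8.24 in A549 in DMSO (2.21-fold lower, adjusted p = 0.0230).

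Of 13 TCA cycle genes, SUCLG2, a succinyl-CoA synthetase subunit, was 2.33-fold lower in AD32 than in A549 in DMSO (adjusted p = 0.0283), and DLST, a subunit of the 2-oxoglutarate dehydrogenase complex, was 1.37-fold higher (adjusted p = 0.0351). DLST had 10.16, 10.17 and 10.19 in AD32, against 9.71, 9.78, 9.67 and 9.71 in A549 in DMSO. All 6 measured pentose phosphate genes had lower means in AD32, with a median of -0.51, and 0 were called, as were 0 of 12 genes of gluconeogenesis and glycogen. Against A549 with discodermolide, UGP2, which makes UDP-glucose for glycogen, was 1.72-fold lower (adjusted p = 0.0476).

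Of 29 G2 and mitosis genes 0 were called in AD32 against A549 in DMSO, with a median of -2.28, and MKI67 had 5.51, 5.87 and 9.93 in AD32, against 6.42, 10.63, 9.88 and 9.90 in A549 in DMSO. Of 19 p53 target genes, 8 were called higher in AD32 and 4 in A549 with discodermolide, each against A549 in DMSO, and 0 lower. These were 42.1% and 21.1% of the list, against 5.72% and 0.372% of all genes.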
